A study of Mus musculus with 7 samples.

Results

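The genes described here are 44 genes of the G2 phase and of mitosis, measured by RNA sequencing in T-cells of ORP4L knock-in (KI) mice and of wild-type (WT) littermates. They were taken by gene symbol, a step that uses no measured value, from a list drawn up with earlier results of these data known. All 44 were found among the 25033 genes listed for each library. All 44 also passed the filter for low counts, which left 13462 genes for testing. There were 4 ORP4L KI and 3 WT libraries, each from a separate mouse, and the sample labels give the C57BL/6J strain and an age of 15 months for both groups. ORP4L KI mice carry human ORP4L, an oxysterol-binding protein of the Osbp2 gene, behind a loxP-flanked stop cassette in the Rosa26 locus, with expression driven by the CAG promoter once Cre removes the stop. Cre is made from the Lck promoter, which is active in T-cells, and the study describes the sequenced ORP4L KI mice as moribund. The sources used here do not state whether the WT littermates carried the Lck-Cre transgene or the uncut allele. They also do not state whether the T-cells of each library came from blood or spleen, or whether RNA was taken before or after culture with interleukin-2 and the mitogen phytohemagglutinin, which drive T-cells to divide.

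A cell that divides passes from DNA replication through G2 into mitosis. Cyclin A2 and the B-type cyclins activate the kinase Cdk1, which starts chromosome condensation and spindle assembly. The spindle checkpoint holds the cell until every kinetochore is attached, and the anaphase-promoting complex (APC/C) then marks cyclins and securin for destruction, so that sister chromatids part and the central spindle directs cytokinesis. Most genes of this programme are silent in resting T-cells and are transcribed in late S phase and G2, under the MuvB complex with B-Myb and FoxM1, so their RNA is widely used as a sign of dividing cells.

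Library totals ranged from 12918187 to 15912921 reads in WT and from 16757959 to 19665679 in ORP4L KI, and values are given below as CPM, read counts scaled to a common library size with TMM factors, in the order of replicates 1 to 3 for WT and 1 to 4 for ORP4L KI. Osbp2 was counted 0, 0 and 1 times in the WT libraries, and 188, 742, 155 and 443 times with the knock-in, so that these counts followed the genotype labels. T-cell genes were present in every library, with Cd3e between 115 and 245 CPM. Both Cd4 and Cd8a were detected in every library, although the study describes isolation of CD4+ T-cells with a kit for naive cells. ORP4L KI replicate 1 stood apart from the others. Its 11 T-cell markers summed to 1241 CPM against 2100.1 to 3585 CPM in the other 6 libraries, and its 7 granulocyte precursor markers to 6537 CPM against 35.6 to 1987 CPM. It also had the most Ccna2 of all libraries, and for that value of a mitotic gene it was singled out beforehand, so fold changes are given with and without it.

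As a group the mitotic genes were at a higher level in ORP4L KI than in WT libraries. Together they had 1134, 942 and 692 CPM in WT and 3047, 1347, 1447 and 1569 CPM in ORP4L KI libraries, so that the lowest ORP4L KI sum lay above the highest WT sum. The means of these sums were 923 ± 222 CPM in WT (SD, n = 3), 1852 ± 801 CPM in ORP4L KI (SD, n = 4) and 1454 ± 111 CPM in ORP4L KI without replicate 1 (SD, n = 3). In edgeR's quasi-likelihood test, fitted on all genes, 44 of 44 had a log2 fold change above 0 (43 of 44 with total counts alone, upper-quartile scaling, a filter of 10 counts in every sample or thinned counts, where Espl1 turned negative), against 51.5% of all genes tested. Their median log2 fold change was 1.10, against 0.013 for all genes. Genes are called here where the p before adjustment is under 0.01 and the change exceeds 1 on the log2 scale in either direction, the lines of the study's volcano plot. By this rule 10 of the 44 were higher (Cdc25c, Mki67, Top2a, Nuf2, Spc25, Kif11, Hmmr, Prc1, Anln and Racgap1) and 0 were lower, while 2.38% of all genes tested were called higher and 2.3% lower. An unadjusted p under 0.05 was found for 33 of the 44, all with the higher level in ORP4L KI, where 6.85% of all genes were higher at this p. In 24 of the 44 the lowest ORP4L KI value exceeded the highest WT value, which held for 6.43% of all genes. After Benjamini-Hochberg adjustment over all 13462 genes, the quasi-likelihood test left 0 of the 44 under 0.05 (0.0223% of all genes), and the lowest adjusted p was 0.0686, for Racgap1. DESeq2's Wald test, edgeR's exact test and its likelihood ratio test gave 16, 10 and 12 of the 44, where 5.82%, 5.07% and 5.24% of all genes passed in these tests. A two-sided exact permutation test of the CPM of single genes reached p = 0.0286, the smallest that 4 against 3 samples allow, for 7 members (Mki67, Incenp, Kif11, Kif4, Kif20a, Prc1 and Racgap1). This test was run on members alone, so there is no share of all genes to set beside that count. In bulk RNA, more dividing cells and more of these transcripts per cell cannot be told apart. The libraries also differed in granulocyte RNA, with precursor marker sums of 35.6 to 265 CPM in WT and 737 to 6537 CPM in ORP4L KI. The part of such cells in the level of the mitotic genes was not tested.

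Without ORP4L KI replicate 1 the higher level was smaller but still present across the list. The median log2 fold change was then 0.71, 43 of 44 values stayed above 0 against 48.8% of all genes, and Espl1 was the exception. The 3 remaining ORP4L KI libraries were clear of WT for the same 24 members. Leaving out replicate 1 could not change this count, since it was above every WT library for 44 of 44 members. This order held for 9.6% of the genes tested in all 7 libraries and 9.31% of those tested in the remaining 6. The number past both lines fell to 2, Nuf2 and Spc25, with 2.06% of all genes called higher and 2.19% lower. A log2 fold change above 1 was left in 5 members, against 27 in all 7 libraries, and the share of all genes above 1 whatever their p was not taken. An unadjusted p under 0.01 was still reached by 10 members, against 11 in all 7 libraries. Over all genes, in either direction, it was reached by 759 of 13338 without that library and by 759 of 13462 in all 7. An unadjusted p under 0.05 was reached by 24 members, where 6.62% of all genes were higher at this p. At an adjusted p under 0.05 there were 0 members by the quasi-likelihood test, and 0.015% of all genes. Other libraries also decided the count of calls. It was 0 without WT replicate 2 (1.31% of all genes called higher), 1 (Racgap1) without WT replicate 3 (1.23%) and 22 without ORP4L KI replicate 2 (3.65%). With total counts alone 5 members were called (2.04% of all genes). That scaling shifted the median log2 fold change over all genes by -0.14, and gave 275 higher and 407 lower genes against 320 and 310 with TMM.

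**Figure D1:**
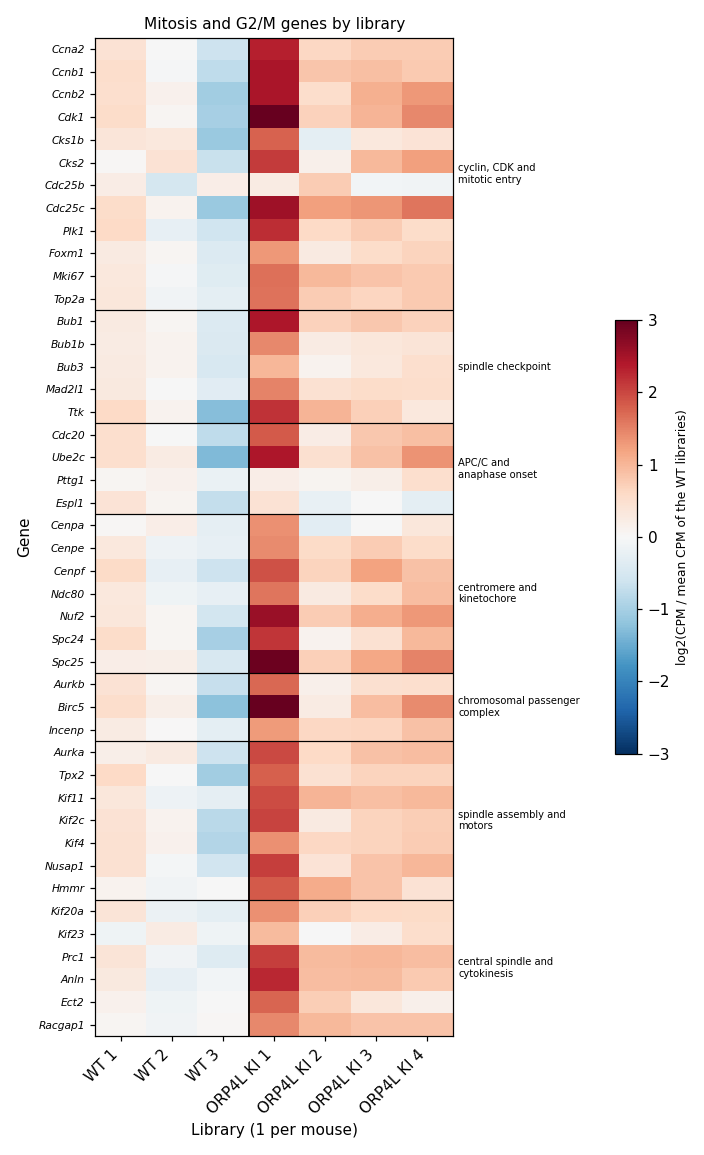
Each row is 1 of the 44 genes and each column 1 library, coloured by log2 of its CPM over the mean CPM of the 3 WT libraries; horizontal lines part the functional groups. ORP4L KI replicate 1 is the highest library in 42 of 44 rows, and WT replicate 3 is the lowest in 37.

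**Figure D2:**
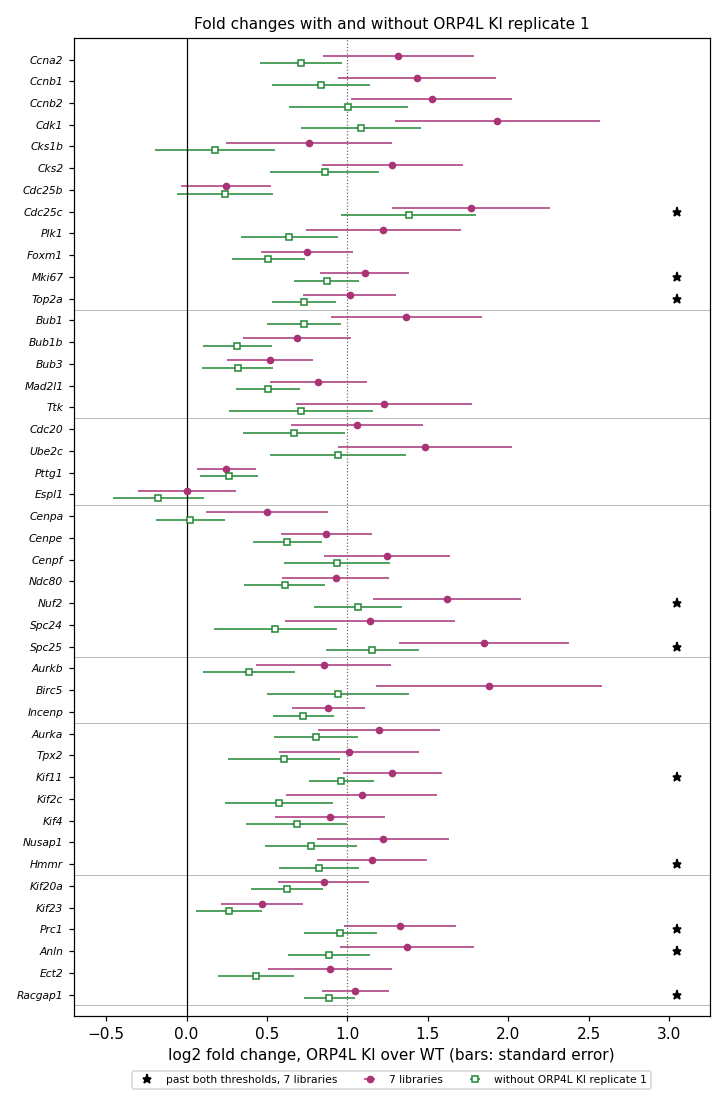
Log2 fold change of ORP4L KI over WT for each of the 44 genes, from all 7 libraries (filled circles) and without ORP4L KI replicate 1 (open squares); bars are standard errors, the dotted line marks 1 and stars mark the 10 genes past both thresholds. Nearly all squares lie to the left of their circles and to the right of 0, and Espl1 without that library lies at -0.18.

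Of the 12 genes of mitotic entry, 3 were called higher, 10 had an unadjusted p under 0.05, and 8 had ORP4L KI libraries that were all above WT. Of all genes tested, 2.38% were called higher, 6.85% were higher at that p, and 6.43% had that order. Ccna2 (chr3:36564865-36572150 in GRCm38) encodes cyclin A2, which drives S phase and entry into mitosis. It had 33.3, 24.3 and 15.9 CPM in WT and 124, 37.6, 41.3 and 41.4 CPM in ORP4L KI libraries. The 4 ORP4L KI libraries were above all WT libraries, and replicate 1 was 3.09 times the mean of the other 3. The log2 fold change of Ccna2 was 1.32 (standard error 0.47, unadjusted p = 0.0195, adjusted p = 0.24 by edgeR), which missed the line at 0.01. The exact permutation test of its CPM gave p = 0.114. Without ORP4L KI replicate 1 its log2 fold change was 0.71 (unadjusted p = 0.0229, adjusted p = 0.251 by edgeR), and the other 3 ORP4L KI libraries, at 37.6 to 41.4 CPM, were still above the highest WT library at 33.3 CPM. Ccna2 is among the genes that the study labelled from these same data, so its direction is not independent evidence. It shares exon sequence with Exosc9 on the opposite strand, as 10 of the 44 do with some neighbour (the others are Cdc25b, Plk1, Foxm1, Cdc20, Ube2c, Kif4, Nusap1, Kif20a and Prc1). Foxm1 overlaps neighbours on its own strand, which assignment by strand would not separate. For the rest the sources do not say whether reads were assigned by strand, so part of all these counts is uncertain.

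The B-type cyclins and their kinase were likewise higher in each ORP4L KI library than in any WT library, and none was past both lines. Ccnb1 had 11.9, 8.05 and 4.85 CPM in WT and 44.9, 14.8, 15.4 and 14.1 CPM in ORP4L KI libraries. Ccnb2 had 26.1, 20 and 8.92 and 101, 26.5, 38.6 and 45.5 CPM. WT replicate 3 was lowest for both cyclins, and the gap between the groups was small for Ccnb2, with 26.5 CPM in ORP4L KI replicate 2 against 26.1 CPM in WT replicate 1. The log2 fold changes were 1.43 for Ccnb1 (unadjusted p = 0.0164, adjusted p = 0.223 by edgeR) and 1.52 for Ccnb2 (unadjusted p = 0.0132, adjusted p = 0.198 by edgeR), and without ORP4L KI replicate 1 they were 0.84 and 1.00. Cdk1, the kinase that both activate, had 16.8, 11.8 and 5.69 CPM in WT and 102, 18.4, 23.1 and 31.2 CPM in ORP4L KI libraries, and its log2 fold change of 1.93 (standard error 0.63) was the largest of the 44. Its p missed the line (unadjusted p = 0.0133, adjusted p = 0.199 by edgeR), and replicate 1 held 4.22 times the mean of the other ORP4L KI libraries. Without that library the log2 fold change of Cdk1 was 1.08 (unadjusted p = 0.0188, adjusted p = 0.23 by edgeR). The small Cdk subunits Cks1b and Cks2, close paralogs between which reads could have been divided, had different orders of libraries. Cks2 had 33.3, 43.4 and 20.2 CPM in WT and 138, 35.7, 63.8 and 76.2 CPM in ORP4L KI libraries, with 3 of 4 ORP4L KI libraries above all WT and a log2 fold change of 1.28 (unadjusted p = 0.0165, adjusted p = 0.223 by edgeR), or 0.86 without replicate 1. Cks1b had 24.5, 24 and 8.85 and 65.1, 15.5, 23.7 and 25.4 CPM, so that replicate 1 stood clear of WT and replicate 4 by a small margin, and its log2 fold change was 0.76, or without replicate 1 0.17 (unadjusted p = 0.652, adjusted p = 0.929 by edgeR). The difference between the paralogs was not tested.

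Among the activators of Cdk1, the phosphatase gene Cdc25c was called higher and its paralog Cdc25b was not. Cdc25c had 2.24, 1.64 and 0.702 CPM in WT and 8.95, 3.56, 3.79 and 4.67 CPM in ORP4L KI libraries, and the log2 fold change was 1.77 (standard error 0.49, unadjusted p = 0.00538, adjusted p = 0.142 by edgeR). It was low in all libraries but every ORP4L KI library was above WT. Cdc25b had 43.4, 26 and 42.7 CPM in WT and 44.3, 63, 35.3 and 34.5 CPM in ORP4L KI libraries. It was the only member with its highest value in ORP4L KI replicate 2, its groups overlapped and its log2 fold change was 0.24 (standard error 0.28, unadjusted p = 0.4, adjusted p = 0.796 by edgeR). Plk1, the polo kinase that acts from mitotic entry to cytokinesis, had 16.7, 9.31 and 7.3 and 51.9, 16.7, 19 and 16.3 CPM, and the log2 fold change was 1.22 (unadjusted p = 0.0303, adjusted p = 0.294 by edgeR). Apart from replicate 1 its ORP4L KI libraries lay at the level of the highest WT library. Foxm1, the transcription factor that activates many of the other members, had 18.8, 16.4 and 11.7 CPM in WT and 38.3, 18.8, 23 and 24.9 CPM in ORP4L KI libraries. Replicate 2 of ORP4L KI and replicate 1 of WT were nearly equal, and the log2 fold change of 0.75 (unadjusted p = 0.0274, adjusted p = 0.286 by edgeR) was below the line at 1. Without ORP4L KI replicate 1 the log2 fold changes were 1.38 for Cdc25c, 0.24 for Cdc25b, 0.64 for Plk1 and 0.51 for Foxm1.

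Mki67 and Top2a, the most used markers of dividing cells, were both called higher, and replicate 1 was 1.7 and 1.86 times the mean of the other ORP4L KI libraries. Mki67, whose product coats mitotic chromosomes, had 134, 105 and 84.1 CPM in WT and 336, 211, 196 and 185 CPM in ORP4L KI libraries. Its log2 fold change was 1.11 (standard error 0.27, unadjusted p = 0.00273, adjusted p = 0.11 by edgeR), and its exact permutation p was 0.0286, the smallest possible. Top2a, the topoisomerase that untangles sister chromatids, had 78.8, 58.4 and 50.7 CPM in WT and 194, 106, 97.9 and 109 CPM in ORP4L KI libraries, and the log2 fold change was 1.01 (standard error 0.29, unadjusted p = 0.00626, adjusted p = 0.147 by edgeR). Both genes had every ORP4L KI library clear of WT. Without replicate 1 the log2 fold changes were 0.87 for Mki67 (unadjusted p = 0.00241, adjusted p = 0.0941 by edgeR) and 0.73 for Top2a (unadjusted p = 0.00573, adjusted p = 0.132 by edgeR), below the line at 1 in size.

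None of the 5 genes of the spindle checkpoint, which delays anaphase until chromosomes are attached, was called. Their sums were 120.5, 106 and 72.8 CPM in WT and 257, 121, 133 and 141 CPM in ORP4L KI libraries, and replicate 2 of ORP4L KI lay level with replicate 1 of WT. Bub1, a checkpoint kinase at the kinetochore, had 8.76, 7.48 and 5.48 CPM in WT and 38.7, 11.7, 12.6 and 11.8 CPM in ORP4L KI libraries, with no overlap, and the log2 fold change was 1.37 (standard error 0.47, unadjusted p = 0.0168, adjusted p = 0.225 by edgeR). Mad2l1, which encodes the Mad2 inhibitor of Cdc20, had 22.6, 18.6 and 14.6 and 51.7, 25.4, 27.1 and 27 CPM and also did not overlap, and the log2 fold change was 0.82 (unadjusted p = 0.023, adjusted p = 0.26 by edgeR). The groups of the other 3 genes overlapped. Bub1b, which encodes BubR1, had a log2 fold change of 0.69 (unadjusted p = 0.0701, adjusted p = 0.421 by edgeR), and Ttk, the Mps1 kinase at the head of the checkpoint, one of 1.23 (unadjusted p = 0.0502, adjusted p = 0.365 by edgeR). Bub3, which is made in resting cells too, had 64.8, 58.5 and 39.1 CPM in WT and 108, 57.8, 67.4 and 77.2 CPM in ORP4L KI libraries, and the log2 fold change was 0.52 (standard error 0.27, unadjusted p = 0.0834, adjusted p = 0.452 by edgeR), or 0.32 without replicate 1. With replicate 1 of ORP4L KI left out, these values were 0.73 for Bub1, 0.51 for Mad2l1, 0.32 for Bub1b and 0.71 for Ttk.

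The 4 genes of APC/C action and anaphase onset were likewise not called, and in none of them were the groups clear of each other. Ube2c, the ubiquitin-conjugating enzyme of the APC/C, had 37.9, 31.3 and 10.6 CPM in WT and 144, 37, 49.2 and 67.2 CPM in ORP4L KI libraries. Cdc20, its activator in mitosis, had 28.4, 20.1 and 11.9 and 71.7, 23.6, 35.1 and 37.3 CPM. In both genes 3 of 4 ORP4L KI libraries were above all WT, replicate 2 was not, and the log2 fold changes were 1.48 (standard error 0.54, unadjusted p = 0.0222, adjusted p = 0.255 by edgeR) for Ube2c and 1.06 (standard error 0.41, unadjusted p = 0.0288, adjusted p = 0.289 by edgeR) for Cdc20. Securin and separase, the inhibitor and the protease that cuts cohesin, showed the least difference. Securin, encoded by Pttg1, had 42.4, 44.5 and 35.3 CPM in WT and 46.4, 43.4, 46.2 and 57.3 CPM in ORP4L KI libraries. It was highest in replicate 4 and its log2 fold change was 0.25 (standard error 0.18, unadjusted p = 0.213, adjusted p = 0.644 by edgeR). Espl1, which encodes separase, had 18.4, 14.7 and 8.5 CPM in WT and 18.7, 11.8, 13.7 and 11.3 CPM in ORP4L KI libraries, with a standard error of 0.30 around a log2 fold change of 0.0014. Without replicate 1 it was -0.18 (unadjusted p = 0.552, adjusted p = 0.894 by edgeR), and its sign also turned under the scalings and filters named above. With replicate 1 of ORP4L KI left out, these values were 0.94 for Ube2c, 0.67 for Cdc20 and 0.26 for Pttg1.

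**Figure D3:**
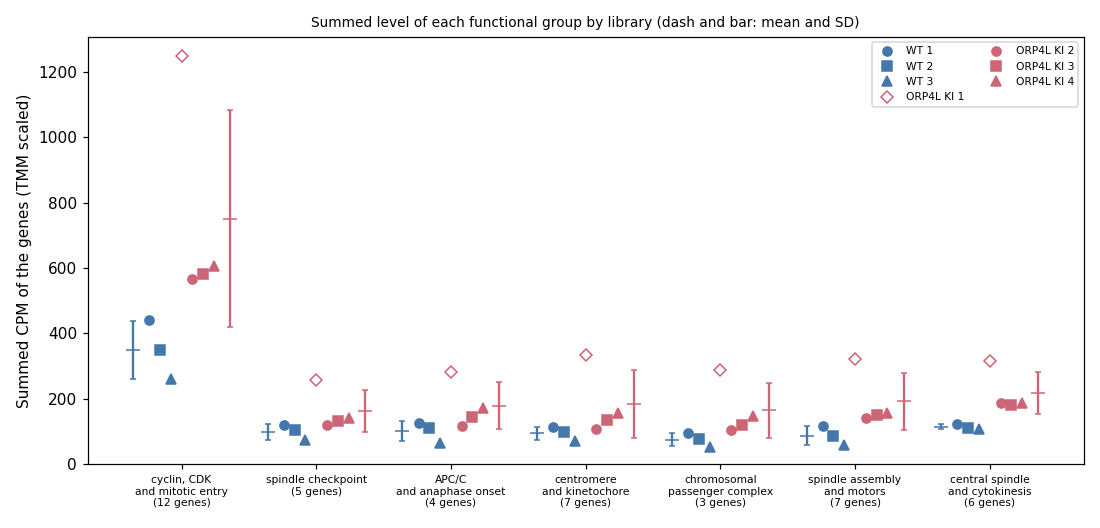
Summed CPM of the genes of each functional group, 1 point per library, with the mean and SD of the 3 WT and 4 ORP4L KI libraries as dashes and bars. ORP4L KI replicate 1 (open diamond) is highest in all 7 groups, and the other 3 ORP4L KI libraries are clear of WT for mitotic entry, the passenger complex, the spindle and the central spindle.

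Of the 7 genes of the centromere and kinetochore, 2 were called higher, against 2.38% of all genes tested. These were the only members past both lines with and without ORP4L KI replicate 1. Without it 2.06% of all genes were called higher. Nuf2 and Spc25 encode subunits of the Ndc80 complex, which binds microtubules at the kinetochore. Nuf2 had 9.5, 7.8 and 5.13 CPM in WT and 45, 12.7, 15.9 and 18.4 CPM in ORP4L KI libraries, and the log2 fold change was 1.62 (standard error 0.46, unadjusted p = 0.00607, adjusted p = 0.147 by edgeR), or 1.06 without replicate 1 (unadjusted p = 0.00416, adjusted p = 0.117 by edgeR). Spc25 had 6.83, 6.73 and 4.21 and 45.8, 9.7, 13.3 and 16.7 CPM, and the log2 fold change was 1.85 (standard error 0.53, unadjusted p = 0.00641, adjusted p = 0.148 by edgeR), or 1.15 without replicate 1 (unadjusted p = 0.00366, adjusted p = 0.112 by edgeR). The groups did not overlap for either gene. With each of the 7 libraries left out in turn, Nuf2 was called in 4 fits and Spc25 in 3, against 5 for Racgap1. Nuf2 missed the line at 0.01 without WT replicate 1, 2 or 3 (unadjusted p = 0.0109, 0.0181 and 0.0295 by edgeR). The other subunits of the Ndc80 complex had overlapping groups. Ndc80 had 13.2, 9.68 and 8.99 CPM in WT and 32.1, 12.9, 15.6 and 20.3 CPM in ORP4L KI libraries, with replicate 2 of ORP4L KI just under replicate 1 of WT and a log2 fold change of 0.93 (unadjusted p = 0.0207, adjusted p = 0.247 by edgeR). Spc24 had 16.2, 11.6 and 5.55 and 49.2, 12.1, 15.2 and 21.6 CPM, with 2 of 4 ORP4L KI libraries above WT and a log2 fold change of 1.14 (unadjusted p = 0.0571, adjusted p = 0.386 by edgeR). The centromere-binding proteins CENP-E and CENP-F did not overlap between groups. Cenpe, a kinesin, had a log2 fold change of 0.87 (unadjusted p = 0.0122, adjusted p = 0.19 by edgeR) and Cenpf one of 1.24 (unadjusted p = 0.0106, adjusted p = 0.18 by edgeR). Cenpa, the histone that marks the centromere, had 42.3, 47.4 and 34.1 CPM in WT and 107, 33.3, 40.8 and 51.8 CPM in ORP4L KI libraries. It was the only member with its lowest value in an ORP4L KI library, its log2 fold change was 0.50 (unadjusted p = 0.221, adjusted p = 0.65 by edgeR), and without replicate 1 it was 0.023 (unadjusted p = 0.916, adjusted p = 0.989 by edgeR). In the fit without replicate 1 the log2 fold changes were 0.61 for Ndc80, 0.55 for Spc24, 0.63 for Cenpe and 0.93 for Cenpf.

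The chromosomal passenger complex corrects faulty attachments and starts cytokinesis. Its scaffold gene Incenp had 57.1, 48.7 and 39.6 CPM in WT and 117, 75.2, 75.7 and 89.8 CPM in ORP4L KI libraries. This was a log2 fold change of 0.88 (standard error 0.23, unadjusted p = 0.00357, adjusted p = 0.117 by edgeR), below the line at 1, with all ORP4L KI libraries above WT and an exact permutation p of 0.0286. The spread within the ORP4L KI group was small for Incenp, with replicate 1 at 1.46 times the mean of the others. For Birc5, which encodes survivin, that ratio was 4.68, the largest of the 44. Birc5 had 21.1, 16.4 and 6.18 CPM in WT and 131, 17.2, 27.6 and 39 CPM in ORP4L KI libraries, so that replicate 2 lay among the WT values. Its log2 fold change was 1.88 (standard error 0.70, unadjusted p = 0.0243, adjusted p = 0.268 by edgeR) and 0.94 without replicate 1. Aurkb, the kinase of the complex, had 16.5, 12.6 and 7.59 and 40.4, 13.6, 17.1 and 17.4 CPM and a log2 fold change of 0.85 (unadjusted p = 0.071, adjusted p = 0.423 by edgeR), with replicate 2 of ORP4L KI below replicate 1 of WT. Leaving out replicate 1, the log2 fold changes of Incenp and Aurkb were 0.72 and 0.39.

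All 7 genes of spindle assembly had an unadjusted p under 0.05, and 2 were called. Among all genes tested, 6.85% were higher at this p and 2.38% were called higher. Kif11, the Eg5 motor that pushes the spindle poles apart, had 26.7, 18.9 and 17.6 CPM in WT and 81.2, 42.7, 39.2 and 41.5 CPM in ORP4L KI libraries. Its log2 fold change was 1.28 (standard error 0.31, unadjusted p = 0.00227, adjusted p = 0.102 by edgeR) and 0.96 without replicate 1 (unadjusted p = 0.00114, adjusted p = 0.0722 by edgeR). The lowest ORP4L KI library was well clear of the highest WT library. Hmmr, which encodes a microtubule-binding protein also known as a hyaluronan receptor, had 6.09, 5.22 and 5.55 CPM in WT and 20.1, 12.1, 10.2 and 7.59 CPM in ORP4L KI libraries. Its WT values were close together and the log2 fold change was 1.15 (standard error 0.34, unadjusted p = 0.00768, adjusted p = 0.159 by edgeR). Aurka, the kinase of the spindle poles, had 10.1, 10.8 and 5.83 and 34.9, 13.5, 16.3 and 16.9 CPM with no overlap, and the log2 fold change was 1.19 (unadjusted p = 0.011, adjusted p = 0.182 by edgeR). Its activator Tpx2 had 35.7, 23.5 and 11.5 and 82.1, 32.5, 37.6 and 37.4 CPM, where replicate 2 of ORP4L KI was below replicate 1 of WT, and a log2 fold change of 1.01 (unadjusted p = 0.0443, adjusted p = 0.344 by edgeR). Kif4, a chromosome-bound motor, also had ORP4L KI libraries that were all above WT, and the log2 fold change was 0.89 (unadjusted p = 0.0273, adjusted p = 0.285 by edgeR). Kif2c, which takes microtubules apart, and Nusap1, which bundles them, had 3 of 4 ORP4L KI libraries above WT and log2 fold changes of 1.09 (unadjusted p = 0.0452, adjusted p = 0.348 by edgeR) and 1.22 (unadjusted p = 0.0153, adjusted p = 0.214 by edgeR). With replicate 1 of ORP4L KI left out, these values were 0.82 for Hmmr, 0.81 for Aurka, 0.61 for Tpx2, 0.68 for Kif4, 0.57 for Kif2c and 0.77 for Nusap1.

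The central spindle brings the cleavage machinery to the middle of the dividing cell. The sums of its genes were 122, 112 and 107 CPM in WT and 316, 188, 181 and 186 CPM in ORP4L KI libraries. Of the 6 genes 3 were called higher, against 2.38% of all genes tested. In 5 of the 6 all ORP4L KI libraries were above WT, against 6.43% of all genes. Racgap1, the GTPase-activating subunit of centralspindlin, had 49.4, 43.8 and 48.7 CPM in WT and 128, 93.5, 84.9 and 84.9 CPM in ORP4L KI libraries. It had the lowest p of the 44, with a change of 1.05 on the log2 scale (standard error 0.21, unadjusted p = 0.000618, adjusted p = 0.0686 by edgeR). Its unadjusted p stayed under 0.01 whichever single library was left out, and its log2 fold change fell below 1 without ORP4L KI replicate 1 (0.89) or WT replicate 2 (1.00 after rounding). Kif23, the motor subunit of the same complex, had 27.8, 36 and 28 CPM in WT and 59.3, 30.4, 35.7 and 44.4 CPM in ORP4L KI libraries. Its groups overlapped and its log2 fold change was 0.47 (unadjusted p = 0.0965, adjusted p = 0.476 by edgeR). Prc1, which cross-links the central spindle, had 16.4, 11.7 and 9.55 and 52.8, 24.4, 25 and 23.8 CPM, and the log2 fold change was 1.33 (standard error 0.35, unadjusted p = 0.00386, adjusted p = 0.124 by edgeR). Anln, the anillin scaffold of the contractile ring, had 4.66, 3.21 and 3.58 and 18.3, 7.23, 7.41 and 6.59 CPM, and the log2 fold change was 1.37 (standard error 0.41, unadjusted p = 0.00864, adjusted p = 0.169 by edgeR). In both genes the ORP4L KI replicates 2, 3 and 4 were close to each other, above WT and below replicate 1. Ect2, which activates RhoA at the cleavage site, had 8.32, 6.98 and 7.59 and 25.7, 12.8, 9.71 and 8.46 CPM with no overlap, but its replicate 4 of ORP4L KI was next to replicate 1 of WT (log2 fold change 0.89, unadjusted p = 0.0458, adjusted p = 0.35 by edgeR). Kif20a, the motor that brings the passenger complex to the central spindle, had a log2 fold change of 0.85 (unadjusted p = 0.0137, adjusted p = 0.202 by edgeR). With replicate 1 of ORP4L KI left out, these values were 0.26 for Kif23, 0.96 for Prc1, 0.89 for Anln, 0.43 for Ect2 and 0.62 for Kif20a.

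Between genes, levels were compared as RPKM, the authors' count scaled by the longest transcript and by library depth. Pttg1 had the highest level of the 44 in WT, with 55.6 ± 4.71 RPKM (SD, n = 3 mice), followed by Cks2 with 48.8 ± 15.4 RPKM. Cks2 led in ORP4L KI with 103 ± 45.6 RPKM (SD, n = 4 mice), followed by Ube2c with 72.8 ± 38.6 RPKM. These neighbours in the order differed by less than the SD of Cks2 in both groups. At the other end Cenpf had 0.566 ± 0.26 RPKM in WT and 1.18 ± 0.358 RPKM in ORP4L KI, and Anln 0.749 ± 0.17 and 1.69 ± 0.767 RPKM.

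The libraries kept nearly the same order across the list. ORP4L KI replicate 1 was highest for 42 of 44 genes, where it was highest for 28.6% of all genes tested, and in 24 of the 24 members with no overlap it was highest, as in 67.8% of the 866 such genes. WT replicate 3 was lowest for 37 of 44 genes (21.5% of all genes), and WT replicate 1 was above replicate 2, and that above replicate 3, for 34 of 44 (21.1% of all genes). Of the ORP4L KI libraries, replicate 2 was lowest for 29 of 44, and the share of all genes with this order was not taken. Taken singly, replicates 1, 2, 3 and 4 were above every WT library for 44, 26, 38 and 40 of the 44 genes, against 34.7%, 27.8%, 21.8% and 27.6% of all genes. The median member in replicate 1 stood at 2.24 times the mean of the other ORP4L KI libraries, and the mean of those others at 1.64 times the WT mean.

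Both lists of granulocyte markers ranked the libraries in the same order. The 7 granulocyte precursor markers (Mpo, Elane, Prtn3, Ctsg, Ms4a3, Cebpe and Fcnb), genes of dividing myeloid cells in bone marrow, summed to 265, 59.3 and 35.6 CPM in WT and 6537, 737, 1258 and 1987 CPM in ORP4L KI libraries, and 7 of 7 were called higher. The 10 mature granulocyte markers summed to 4702, 4611 and 1736 and 140432, 9672, 29714 and 51686 CPM, with 9 of 10 called higher. The order of all 7 libraries by either sum was the same as by the sum of the mitotic genes. Both lists kept all these calls without ORP4L KI replicate 1. T-cell markers did not follow that order: they summed to 2811, 2100.1 and 2614 CPM in WT and 1241, 3585, 2615 and 2957 CPM in ORP4L KI libraries, with 0 of 11 called and 0 at an unadjusted p under 0.05. ORP4L KI replicate 2 had the most T-cell marker RNA and the least granulocyte precursor RNA of its group. Its precursor sum of 737 CPM was still above the 35.6 to 265 CPM of WT, and its mitotic sum was 1347 CPM against 692 to 1134 CPM in WT. Of the 10 erythroid markers 0 were called (sums 131 to 314 CPM over all libraries), and of the 11 B-cell and plasma-cell markers 0 (459 to 1065 CPM). Of the 6 germinal-centre markers 1 was called lower. Of the 9 stem and progenitor markers, 2 were called higher (Prom1 and Erg) and 2 lower (Kit and Flt3), and the mean sum of the list was 279 CPM in WT and 215 CPM in ORP4L KI. The part of granulocyte precursors, erythroid cells or other dividing cells in the level of the mitotic genes was not tested.

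**Figure D4:**
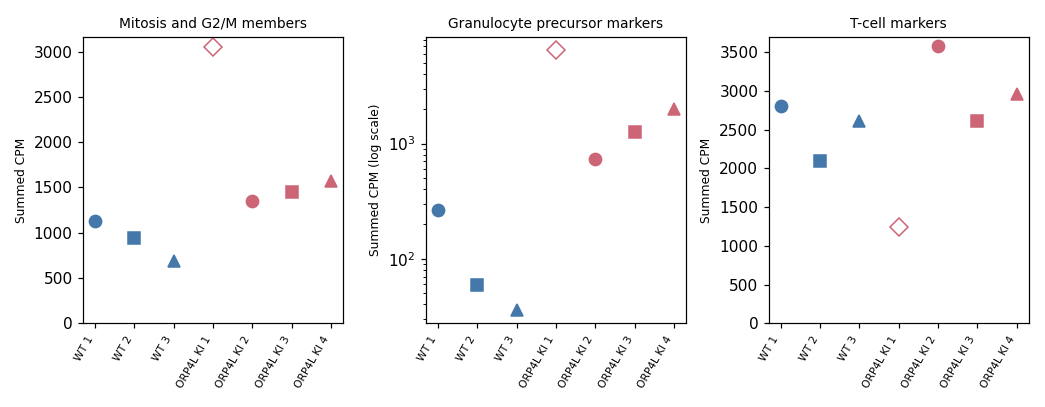
Summed CPM per library of the 44 mitotic genes, of the 7 granulocyte precursor markers (log scale) and of 11 T-cell markers; blue points are WT and red points ORP4L KI, with replicate 1 of ORP4L KI as an open diamond. The first and second panels rank the libraries alike, from WT replicate 3 up to ORP4L KI replicate 1, and in the third replicate 1 of ORP4L KI is the lowest.

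The rest of the mitotic pathway was read from 6 further lists that share no gene with the 44. Of 107 genes tested, 11 were called higher and 0 lower, the median log2 fold change was 0.60, and 98 of 107 values were above 0. Medians by list ranged from 0.088 to 1.08. For 27 other spindle and cytokinesis genes the median was 1.08 with 6 called, led by Depdc1b (3.85, 2.96 and 2.81 CPM in WT and 36.6, 7.56, 8.85 and 10.4 CPM in ORP4L KI, log2 fold change 2.30), Depdc1a (1.75) and Cdca3 (1.55). Of these Cdca3 was not past the line, and the other 4 called were Kif14, Dlgap5, Cdca8 and Iqgap3. For 23 other G2/M regulators it was 0.88 with 4 called, and the largest values were those of Cdkn3, a phosphatase that acts on Cdk1 and Cdk2 (2.15), the E2F repressor E2f8 (1.78) and the kinase Pbk (1.60, not called), while Hjurp and E2f7 were the other 2 called. For 26 other kinetochore genes the median was 0.71 with 1 called (Spag5), and Ska1 (1.83), Cenpw (1.65) and Ska3 (1.32) had the largest values, none past the lines. Condensin, which compacts chromosomes, had a median of 0.75 over 8 genes with 0 called and its largest values for Ncaph (1.17), Smc2 (0.92) and Ncapg2 (0.91). Subunits that cells hold throughout the cycle sat near 0. The 9 cohesin genes had a median of 0.15, from 0.033 to 0.43 for Rad21, followed by Smc3 (0.26) and Pds5b (0.18), with 0 called and 0 at an unadjusted p under 0.05. The 14 APC/C subunits and inhibitors had a median of 0.088 with 0 called, and their largest value was that of Fbxo5 (1.08), the Emi1 inhibitor, which unlike the core subunits is made periodically, before Cdc27 (0.37) and Anapc13 (0.24). The 11 of 107 called stand against 2.38% of all genes. Without ORP4L KI replicate 1 the number was 3 of 107, near the 2.06% of all genes called higher in that fit. It was 6, 1, 1 and 18 without WT replicates 1, 2 and 3 and ORP4L KI replicate 2, where 1.38%, 1.31%, 1.23% and 3.65% of all genes were called higher.

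For comparison, 33 genes of DNA replication had a median log2 fold change of 0.50, 31 of 33 above 0, and 2 called higher (Rrm2, 1.69, and Ccne2, 1.48), against a median of 1.10 and 10 of 44 for the mitotic genes. Without ORP4L KI replicate 1 the medians were 0.30 and 0.71, and 2 of 33 and 2 of 44 were called, so the lists then no longer differed in the number of calls. Of all genes 2.38% were called higher with that library and 2.06% without it. The difference between the lists was not tested.

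**Figure D5:**
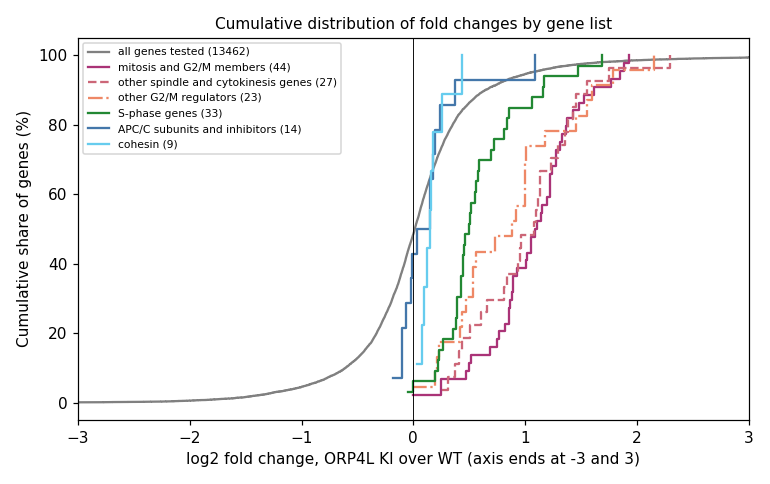
Cumulative share of genes by log2 fold change of ORP4L KI over WT, for all 13462 genes tested, the 44 mitotic genes and 5 other lists, with the number of genes tested in brackets. The curves of the mitotic genes, of other spindle genes and of other G2/M regulators lie to the right, with medians from 0.88 to 1.10, the replication genes lie between, and cohesin and APC/C lie near 0.

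Many members also share promoter motifs, which their selection by name did not use. Genes of late G2 are known to carry a cell cycle genes homology region (CHR), the site where the MuvB complex binds, near the start of transcription and often below one or more CCAAT boxes, the sites of NF-Y. The CHR was searched as TTTGAA or TTCGAA and the CCAAT box as CCAAT, on both strands, in the RefSeq promoter windows of 250 bases before and 50 bases after each annotated start (build GRCm38.p6, the mm10 of the labels). TTCGAA reads the same on both strands and was counted once, and no CHR match overlapped a CCAAT match in a member. Of the 36 members with an entry, 28 (77.8%) had a CHR match, against 21.7% of 27025 genes. The 8 members without an entry were Aurkb, Spc24, Ccna2, Kif20a, Foxm1, Cdc25c, Tpx2 and Incenp. A CCAAT match was found in 28 (77.8%), against 41.1%, and both in 25 (69.4%), against 8.61%. Near the start, from 50 bases before to 49 after, 26 of 36 (72.2%) had a CHR match, against 6.12% of all genes. The promoters below were chosen as examples from 4 of the 7 functional groups (mitotic entry, anaphase onset, spindle and central spindle), each as the 150 bases directly before the annotated start, 5′ to 3′ on the strand of the gene, with matches in capitals.
Cdk1 (chr10:69352913-69353062, minus strand): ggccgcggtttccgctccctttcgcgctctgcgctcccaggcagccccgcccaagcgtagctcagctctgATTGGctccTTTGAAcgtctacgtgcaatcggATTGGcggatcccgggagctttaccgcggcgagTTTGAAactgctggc
Mki67 (chr7:135716380-135716529, minus strand): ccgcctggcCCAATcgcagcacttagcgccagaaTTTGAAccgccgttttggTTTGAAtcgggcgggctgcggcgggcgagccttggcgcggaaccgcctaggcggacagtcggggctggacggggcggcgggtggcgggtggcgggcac
Top2a (chr11:99024190-99024339, minus strand): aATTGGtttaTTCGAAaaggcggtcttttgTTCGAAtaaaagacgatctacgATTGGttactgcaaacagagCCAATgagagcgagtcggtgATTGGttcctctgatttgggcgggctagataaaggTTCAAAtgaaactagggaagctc
Cdc20 (chr4:118437344-118437493, minus strand): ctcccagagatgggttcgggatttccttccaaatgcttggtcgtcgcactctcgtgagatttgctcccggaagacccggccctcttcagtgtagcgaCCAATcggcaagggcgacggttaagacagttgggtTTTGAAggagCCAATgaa
Kif11 (chr19:37376232-37376381, plus strand): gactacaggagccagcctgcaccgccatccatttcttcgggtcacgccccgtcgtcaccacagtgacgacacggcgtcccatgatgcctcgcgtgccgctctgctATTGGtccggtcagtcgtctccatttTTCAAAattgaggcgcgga
Prc1 (chr7:80294326-80294475, plus strand): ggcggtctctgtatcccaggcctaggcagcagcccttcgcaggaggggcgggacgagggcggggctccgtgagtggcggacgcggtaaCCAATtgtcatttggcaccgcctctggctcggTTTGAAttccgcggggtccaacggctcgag
Espl1 (chr15:102296143-102296292, plus strand): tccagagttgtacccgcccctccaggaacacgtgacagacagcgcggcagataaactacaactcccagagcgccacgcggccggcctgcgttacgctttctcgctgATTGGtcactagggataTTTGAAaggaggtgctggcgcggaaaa
Ccnb1 (chr13:100786487-100786636, minus strand): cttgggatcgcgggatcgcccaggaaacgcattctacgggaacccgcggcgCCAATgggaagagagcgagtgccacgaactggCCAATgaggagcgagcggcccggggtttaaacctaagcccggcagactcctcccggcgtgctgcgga

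In Cdk1 a CHR match began 15 bases before the start, with CCAAT boxes on the opposite strand (ATTGG) at 48 and 80 bases, and Top2a had the most matches of the set shown. The CHR matches of Mki67 began 116 and 98 bases before the start, outside the window near the start. In Cdc20 and Prc1 the CHR match lay 18 and 30 bases before the start, below a CCAAT box at 53 and 62 bases. Espl1 is shown because it has the same arrangement, a CHR match 27 and a CCAAT match 44 bases before the start, while its log2 fold change was 0.0014. Ccnb1 is shown as a member with CCAAT boxes only: these letters of the CHR are not in its window, and its log2 fold change was 1.43. The 28 members with a CHR match had a median log2 fold change of 1.10 and the 8 with an entry but no match (Birc5, Ccnb1, Cenpe, Cks2, Mad2l1, Nuf2, Nusap1 and Pttg1) one of 1.25. These medians are a description, and their difference was not tested. Across the other lists, a CHR match was found in 18 of 22 spindle and cytokinesis genes (81.8%), 6 of 7 condensin genes (85.7%), 10 of 23 kinetochore genes (43.5%), 8 of 19 G2/M regulators (42.1%), 1 of 6 cohesin genes (16.7%) and 2 of 13 APC/C genes (15.4%). Among all genes tested with an entry the share was 16.8%.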

How the data were processed

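T-cell RNA of 4 ORP4L KI and 3 WT mice was sequenced as mRNA libraries on an Illumina NovaSeq instrument. The authors trimmed adapters, discarded reads shorter than 17 nt, used FANSe3 to map the rest against mouse mRNA reference sequences, and merged splice variants per gene. The labels name mm10. Version, settings, strand and handling of reads shared by genes are not given in the sources used here. The authors deposited raw read counts and RPKM values (per kilobase of the longest transcript). The deposited RPKM values were used only to set levels of different genes side by side. Counts were fitted for all genes in R 4.3.3 with edgeR 4.0.16 (filterByExpr, a minimum of 10 counts in the smaller group's number of libraries, scaled to depth, and 15 summed over libraries; TMM; quasi-likelihood test without covariates), and the standard error was taken as the log2 fold change over the square root of F. Groups came from the titles. All 44 members are named, the 3 largest changes of each pathway list, and marker genes; 7 of the 11 pathway genes called fall outside that rule (Spag5, Kif14, Dlgap5, Cdca8, Iqgap3, Hjurp and E2f7) and were named after their values were seen, and marker lists are given by counts. The members and lists were chosen with earlier results of these data known. Same-numbered mice deviated together by correlations of 0.150, -0.535 and -0.00184 for replicates 1, 2 and 3, so the numbers were not taken as pairs. Alternatives, 18 in all, were other scalings, filters and tests (DESeq2 1.42.0), a replicate block, each library left out and thinned counts. In simulated data for ORP4L KI against WT over 13286 genes, 188 of 193 genes changed by 2 on the log2 scale were recovered at the thresholds with 66 false calls, and 88 of 13276 unchanged genes were called in a second simulation. These simulations drew each gene independently and held no distant library. Their change of 2 was larger than the members' median of 1.10, so recovery of smaller changes was not examined. Tables and plots were made with Python 3.11.15, pandas 2.3.3 and Matplotlib 3.10.9.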

Additional observations from a re-analysis of the deposited data

Results flagged for a closer look

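In each of 53 sets of ORP4L KI values (the 44 genes, the sums of all members, of the 7 functional groups and of the other pathway lists together), the 4 libraries were searched for a single distant one by Dixon's ratio. It was above its 95% critical value in 22 sets. For independent sets chance gives about 1 in 20, or 2.65. These sets are not independent of each other, so the 22 cannot be set against 2.65. The distant library was the high ORP4L KI replicate 1 in every one of the 22. This library had been singled out beforehand for its Ccna2, so the sets of Ccna2, of all members and of mitotic entry restate a value already used. The libraries kept nearly the same order across the other members, so their sets are not separate evidence. Of the summed values, it had 3047 CPM for all members, 1247 for mitotic entry, 257 for the spindle checkpoint, 323 for spindle assembly and 316 for the central spindle. Of the single genes of mitotic entry, it had 124 CPM of Ccna2, 44.9 of Ccnb1, 102 of Cdk1, 51.9 of Plk1 and 194 of Top2a. Among checkpoint genes these values were 38.7 CPM for Bub1, 46 for Bub1b and 51.7 for Mad2l1. Among Aurora kinases and spindle genes they were 40.4 CPM for Aurkb, 34.9 for Aurka, 82.1 for Tpx2, 81.2 for Kif11, 20.6 for Kif2c and 25 for Kif4. For cytokinesis they were 31.6 CPM for Kif20a, 52.8 for Prc1 and 18.3 for Anln. The ratio was highest for Bub1 (0.966), whose other 3 ORP4L KI libraries lay between 11.7 and 12.6 CPM. Birc5, with the largest excess of replicate 1, did not pass, since its other libraries were spread from 17.2 to 39 CPM.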

How the results depend on the processing

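The 10 members past both thresholds became 5 with total counts alone, 18 without a filter, 21 each with DESeq2's Wald test, edgeR's exact test and its likelihood ratio test, and 23 with the replicate number as a block in replicates 1 to 3, against 8 in the same 6 libraries without the block. With single libraries left out the count ranged from 0 to 22. The 0 members at an adjusted p under 0.05 became 16 with the Wald test, 10 with the exact test and 12 with the likelihood ratio test, and ranged from 0 to 1 with single libraries left out. The 11 pathway genes became 24, 20 and 21 with these tests in the same order and 20 with the replicate block, and ranged from 1 to 18. The 630 genes called in all ranged from 328 (without WT replicate 2) to 805 with single libraries left out, and the Wald, exact and likelihood ratio tests called 490, 454 and 467 higher and 365, 398 and 403 lower. The share of all genes called higher was 2.04% with total counts, 2.26% without a filter, 3.64%, 3.37% and 3.47% with these 3 tests and 1.99% with the block. Ccna2 passed both thresholds with the Wald test (log2 fold change 1.34), the exact and likelihood ratio tests (1.32 each) and the replicate block (1.30), and with single libraries left out it ranged from 0.71 to 1.60, past both without ORP4L KI replicate 2 (1.48). WT replicates 2 and 3 correlated best with ORP4L KI replicates 1 and 2, not with their own number. Espl1 turned negative with total counts (-0.16), upper-quartile scaling (-0.075), 10 counts in every sample (-0.0087) and thinned counts (-0.015), and ranged from -0.25 to 0.26 with single libraries left out (-0.18 without ORP4L KI replicate 1). The cause was not tested. The median of the members (0.71 to 1.29 over all alternatives) moved by less than the spread between replicates, a pooled SD of 0.56 on the log2 scale. That spread includes ORP4L KI replicate 1, so it is a weak measure of what leaving that library out changed. The count of 24 without overlap stayed within 1.5 times. For the other 43 members, 654 of 774 values kept direction and side, 68 were stronger, 46 weaker and 6, all of Espl1, reversed. Precision is limited by 3 and 4 mice.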
